A study of Mus musculus with 6 samples.

Results

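Ctnnd2 and Ctnna2 were examined in crosslinking and immunoprecipitation sequencing (CLIP-seq) lists of polypyrimidine tract binding proteins from mouse cerebral cortex. The Ctnnd2 locus was taken as chromosome 15 from 30.1 to 30.96 Mb on the plus strand, and the Ctnna2 locus as chromosome 6 from 76.84 to 77.92 Mb on the minus strand, both in the mm9 build. Members were the distinct read intervals, each a unique combination of chromosome, strand, start and end, whose midpoint lay in 1 of these loci. They numbered 12078 of 940882 distinct intervals in the 6 lists, with 5143 in Ctnnd2 and 6935 in Ctnna2. The loci were chosen by position, and Ctnnd2 was selected on its numbers of sites from 30.1 to 30.2 Mb, which had been seen to be higher for FLAG-PTBP1 than for PTBP2; that contrast is therefore given as a description. The gene names came with the chosen coordinates and were not checked against mm9 gene models, which were not used here, and no interval was placed in an exon, an intron or an untranslated region.

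All cortices were from BL6/129Sv mice on postnatal day 1. Per the labels' protocols they were irradiated with ultraviolet light at 400 mJ/cm2, and nuclear RNA crosslinked to the precipitated protein was sequenced. The FLAG loxP group (1 library, FLAG antibody) was Rosa-PTBP1; PTBP2 loxp/loxp; Emx1-Cre. The FLAG Rosa-PTBP1 group (1 library, FLAG antibody) was Rosa-PTBP1; Emx1-cre, without the loxP alleles. The PTBP2 Rosa-PTBP1 group (1 library, PTBP2 antibody) had that same genotype. The PTBP2 WT group (1 library, PTBP2 antibody) and the FLAG WT group (2 libraries, FLAG antibody) were wild type. Rosa-PTBP1 is a transgene for FLAG-tagged PTBP1, and Emx1-cre drives recombination in the dorsal forebrain, mainly in the lineage of cortical excitatory neurons and glia, so other cortical cells need not carry the change. Every Rosa-PTBP1 group carried the recombinase too, and a comparison with wild type differs by both. Wild-type cortex has no FLAG-PTBP1, and its FLAG libraries give the background of antibody and procedure. It is not stated whether the FLAG WT replicates came from separate animals.

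Ctnnd2 encodes delta-catenin, an armadillo-repeat protein found mainly in neurons that binds the juxtamembrane part of classical cadherins and takes part in dendrite and spine maintenance. Ctnna2 encodes alphaN-catenin, the neural alpha-catenin that joins the cadherin and beta-catenin complex to actin filaments. PTBP1 and PTBP2 are related proteins that bind pyrimidine-rich stretches of nuclear RNA, often in introns, and regulate splicing. PTBP1 is the form of progenitors and most non-neural cells, and PTBP2 is the form of developing neurons.

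Overlapping or touching intervals of 1 strand were merged into sites, and a site of 5 or more distinct intervals is called stacked. The lists held 34912 sites in FLAG loxP, 43026 in FLAG Rosa-PTBP1, 22637 in PTBP2 Rosa-PTBP1, 27469 in PTBP2 WT, and 73519 and 9567 in FLAG WT replicates 1 and 2. FLAG WT replicate 1 stood apart, with 85.8% of its sites built from 1 interval, against 15.1% to 46.2% in the other 5 libraries. PTBP2 Rosa-PTBP1 was nearly empty on several chromosomes, chromosome 6 among them: it had 181 sites there, or 0.800% of its sites, against a median of 6.38% in the other libraries. It listed no interval in Ctnna2, and no comparison with it was made there. FLAG Rosa-PTBP1 also had 1 chromosome with under 0.5 of the median share in the other libraries, which raises its shares elsewhere. Chromosomes without such a shortage are called filled. FLAG loxP, FLAG Rosa-PTBP1 and FLAG WT replicate 2 came wholly from 1 sequencing run named in the read names. Both PTBP2 libraries and FLAG WT replicate 1 came from a pair of other runs, so antibody and run cannot be told apart when FLAG-PTBP1 is set against PTBP2.

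By share of sites, both loci were densely crosslinked in FLAG-PTBP1 libraries, and Ctnna2 was also dense in PTBP2 WT. Values are sites per 1000 sites of the library, with exact 95% intervals that cover counting error only. Ctnnd2 held 4.78 (4.09 to 5.56) in FLAG loxP, 5.11 (4.46 to 5.83) in FLAG Rosa-PTBP1, 2.08 (1.53 to 2.76) in PTBP2 Rosa-PTBP1 and 2.40 (1.86 to 3.06) in PTBP2 WT. FLAG WT replicates 1 and 2 had 2.67 and 0.941 there, a mean of 1.80 ± 1.22 (SD, n = 2). By share of sites the FLAG-PTBP1 libraries were thus above both FLAG WT replicates in Ctnnd2, while the PTBP2 libraries lay between them. Ctnna2 held 5.56 (4.80 to 6.39) in FLAG loxP, 8.00 (7.18 to 8.88) in FLAG Rosa-PTBP1 and 6.55 (5.63 to 7.58) in PTBP2 WT, and 3.36 and 1.88 in FLAG WT replicates 1 and 2, a mean of 2.62 ± 1.05 (SD, n = 2). All 3 PTBP libraries compared in Ctnna2 were above both FLAG WT replicates. In order from high to low, Ctnnd2 ran FLAG Rosa-PTBP1, FLAG loxP, FLAG WT replicate 1, PTBP2 WT, PTBP2 Rosa-PTBP1 and FLAG WT replicate 2, and Ctnna2 ran FLAG Rosa-PTBP1, PTBP2 WT, FLAG loxP, FLAG WT replicate 1 and FLAG WT replicate 2. In both orders the intervals of each library overlapped those of its neighbour, apart from FLAG loxP and FLAG WT replicate 1, which did not overlap. Each group but FLAG WT held 1 library, so no significance test between groups was made. No library listed an interval on the opposite strand of either locus.

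**Figure D1:**
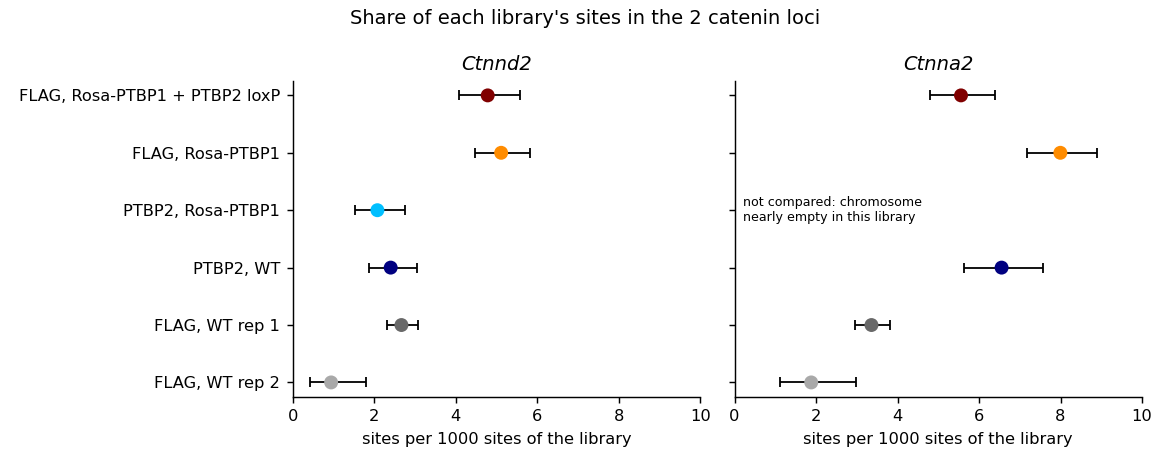
Sites in each locus per 1000 sites of the library (x axis), 1 point per library with its exact 95% counting interval; groups run down the page. FLAG-PTBP1 libraries lie at 4.78 and 5.11 in Ctnnd2, above all others, while in Ctnna2 the PTBP2 WT library, at 6.55, lies between FLAG loxP and FLAG Rosa-PTBP1.

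FLAG WT replicate 1 had many sites in both loci and almost none that were stacked, while FLAG WT replicate 2 had few sites of either kind. In Ctnnd2, stacked sites numbered 94 of 167 in FLAG loxP, 141 of 220 in FLAG Rosa-PTBP1, 14 of 47 in PTBP2 Rosa-PTBP1 and 34 of 66 in PTBP2 WT, against 0 of 196 in FLAG WT replicate 1 and 1 of 9 in replicate 2. In Ctnna2 they numbered 122 of 194 in FLAG loxP, 248 of its 344 sites in FLAG Rosa-PTBP1 and 85 of 180 in PTBP2 WT, against 1 of 247 and 6 of 18 in FLAG WT replicates 1 and 2. Over whole libraries the stacked share was 50.3% in FLAG loxP, 56.3% in FLAG Rosa-PTBP1, 13.1% in PTBP2 Rosa-PTBP1 and 35.1% in PTBP2 WT, and 0.547% and 8.96% in FLAG WT replicates 1 and 2. The Ctnnd2 share of FLAG loxP, 56.3% (48.4 to 63.9), includes its library value, whereas that of FLAG Rosa-PTBP1 was 64.1% (57.4 to 70.4) and those of the PTBP2 libraries were 29.8% (17.3 to 44.9) in PTBP2 Rosa-PTBP1 and 51.5% (38.9 to 64.0) in PTBP2 WT. The share of sites in Ctnnd2 was 1.92-fold (1.58 to 2.34) that of FLAG WT replicate 1 in FLAG Rosa-PTBP1 and 5.44-fold (2.81 to 12.0) that of replicate 2. For Ctnna2 these folds were 2.38 (2.02 to 2.81) and 4.25 (2.65 to 7.26). PTBP2 WT in Ctnna2 was 1.95-fold (1.60 to 2.37) FLAG WT replicate 1 and 3.48-fold (2.14 to 6.01) replicate 2. In Ctnnd2 the corresponding folds of PTBP2 WT were 0.901 (0.671 to 1.20) and 2.55 (1.27 to 5.83). Its direction by sites thus depended on which FLAG WT library stood beside it. Counted as intervals, Ctnnd2 held 4.88 (4.54 to 5.24) per 1000 intervals in PTBP2 WT and 5.23 (4.72 to 5.77) in PTBP2 Rosa-PTBP1. Both were above FLAG WT replicates 1 and 2, at 2.73 (2.40 to 3.10) and 0.863 (0.547 to 1.29).

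Intervals of Ctnnd2 gathered in its 5′ portion, in 4 windows of 100 kb. FLAG-PTBP1 and PTBP2 libraries divided them differently, mainly in the first window, which the choice of the locus used. Protein, antibody and run cannot be told apart in this contrast. From 30.1 to 30.2 Mb there were 29 sites in FLAG loxP, 67 in FLAG Rosa-PTBP1, 1 in PTBP2 Rosa-PTBP1 and 4 in PTBP2 WT, and 45 and 2 in FLAG WT replicates 1 and 2. The window held 17.4% of the locus' sites in FLAG loxP and 30.5% in FLAG Rosa-PTBP1, against 2.1% in PTBP2 Rosa-PTBP1 and 6.1% in PTBP2 WT. In FLAG WT replicates 1 and 2 it held 23.0% and 22.2%, between the values of the FLAG-PTBP1 libraries. From 30.2 to 30.3 Mb there were 36 sites in FLAG loxP, 28 in FLAG Rosa-PTBP1, 10 in PTBP2 Rosa-PTBP1, 11 in PTBP2 WT, and 27 and 1 in FLAG WT replicates 1 and 2. That second window was the densest for PTBP2 by intervals, which numbered 575 in FLAG loxP, 572 in FLAG Rosa-PTBP1, 239 in PTBP2 Rosa-PTBP1 and 408 in PTBP2 WT. From 30.3 to 30.4 Mb the sites numbered 33 in FLAG loxP, 31 in FLAG Rosa-PTBP1, 8 in PTBP2 Rosa-PTBP1, 10 in PTBP2 WT, and 25 and 0 in FLAG WT replicates 1 and 2. From 30.4 to 30.5 Mb they numbered 49 in FLAG loxP, 65 in FLAG Rosa-PTBP1, 18 in PTBP2 Rosa-PTBP1, 28 in PTBP2 WT, and 33 and 2 in FLAG WT replicates 1 and 2. The rest of the locus held few sites in every PTBP library, whereas those of FLAG WT replicate 1 were spread along all of it.

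**Figure D2:**
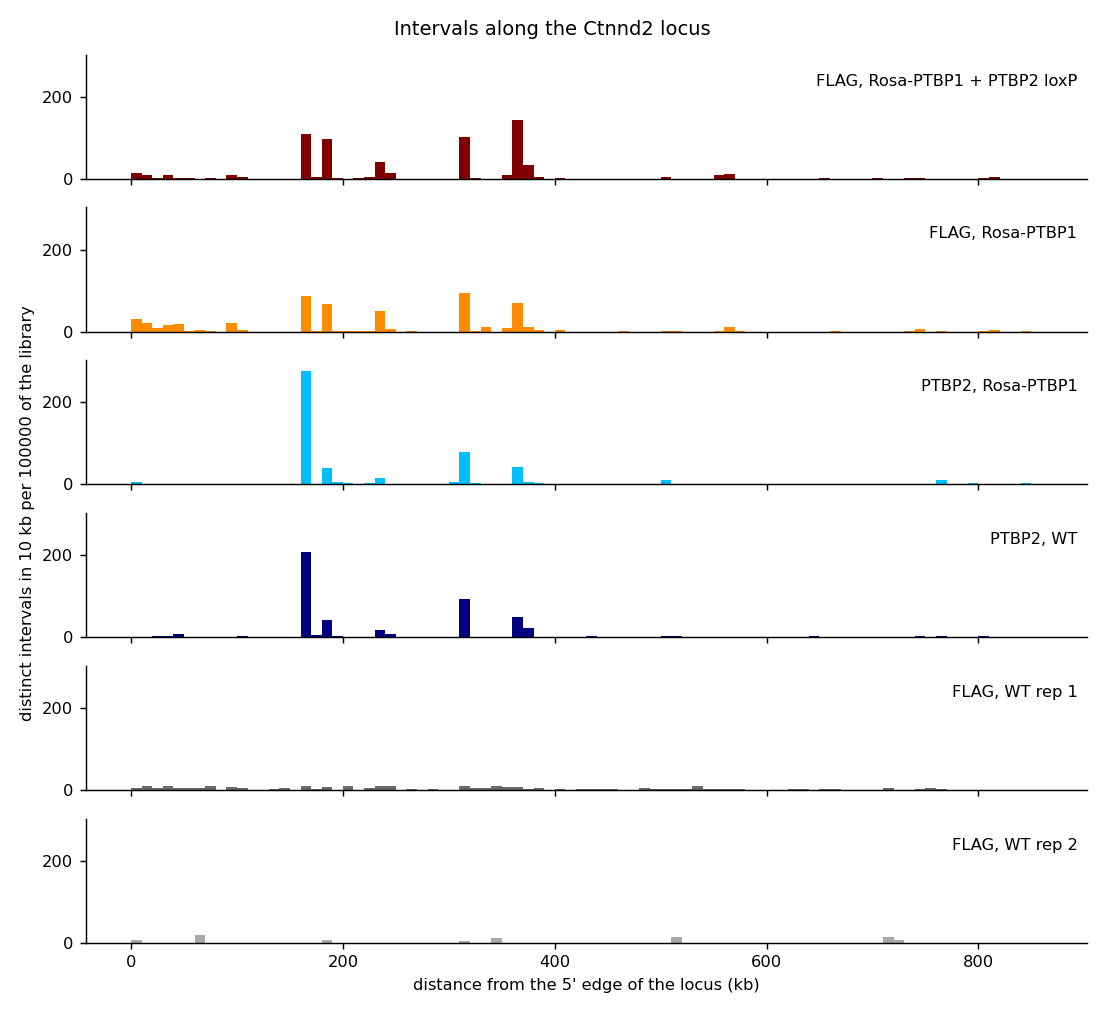
Distinct intervals in each 10 kb per 100000 distinct intervals of the library (y axis, 1 scale for all panels) against distance from the 5′ edge of the Ctnnd2 locus in kb (x axis), 1 panel per library. The 10-kb stretch that is tallest in both PTBP2 libraries reaches 108 in FLAG loxP and 87.9 in FLAG Rosa-PTBP1, against 275 in PTBP2 Rosa-PTBP1 and 208 in PTBP2 WT, and the first 100 kb are lower in both PTBP2 libraries than in any FLAG library, FLAG WT included.

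When intervals of the 4 PTBP libraries were merged into common regions, it contained 83 regions: 29 with FLAG loxP intervals, 67 with FLAG Rosa-PTBP1 intervals, 1 with PTBP2 Rosa-PTBP1 intervals and 4 with PTBP2 WT intervals. Both FLAG-PTBP1 libraries shared 14 of them. Regions with FLAG WT intervals numbered 7 for replicate 1 and 1 for replicate 2. The share of sites in this window, which the choice of the locus used, was 35.3-fold (6.11 to 1413) higher in FLAG Rosa-PTBP1 than in PTBP2 Rosa-PTBP1, and rests on 1 site of the PTBP2 library. In FLAG loxP it was 5.70-fold (2.00 to 22.3) that of PTBP2 WT.

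The largest Ctnnd2 region lay outside that window and was held by all 4 PTBP libraries. This leading region, at chr15:30262900-30264041 on the plus strand (1142 bases), had 284 intervals in FLAG loxP, 307 in FLAG Rosa-PTBP1, 205 in PTBP2 Rosa-PTBP1 and 324 in PTBP2 WT, and 2 and 0 in FLAG WT replicates 1 and 2. It thus took 16.2% of the locus' intervals in FLAG loxP and 14.7% in FLAG Rosa-PTBP1, against 52.7% in PTBP2 Rosa-PTBP1 and 42.7% in PTBP2 WT. Among all merged regions with intervals of the library, it ranked 28 of 32605 in FLAG loxP, 27 of 40650 in FLAG Rosa-PTBP1, 14 of 21825 in PTBP2 Rosa-PTBP1 and 13 of 25702 in PTBP2 WT. Per 100000 intervals of the library it held 107 in FLAG loxP, 87.3 in FLAG Rosa-PTBP1, 275 in PTBP2 Rosa-PTBP1 and 208 in PTBP2 WT. FLAG Rosa-PTBP1 over PTBP2 Rosa-PTBP1 was 0.317 (0.265 to 0.380), a contrast the choice of the locus used, and FLAG loxP over PTBP2 WT was 0.512 (0.435 to 0.603). Distinct 5′ ends in the region numbered 278 in FLAG loxP, 294 in FLAG Rosa-PTBP1, 205 in PTBP2 Rosa-PTBP1 and 278 in PTBP2 WT. Lists keep about 1 interval per leftmost coordinate, so counts level off where reads pile up. The counting intervals do not cover this, and its part in these ratios was not tested. Both antibodies covered most of its length, from 87.4% of bases in PTBP2 Rosa-PTBP1 to 98.3% in PTBP2 WT, with several peaks of stacking inside it.

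**Figure D3:**
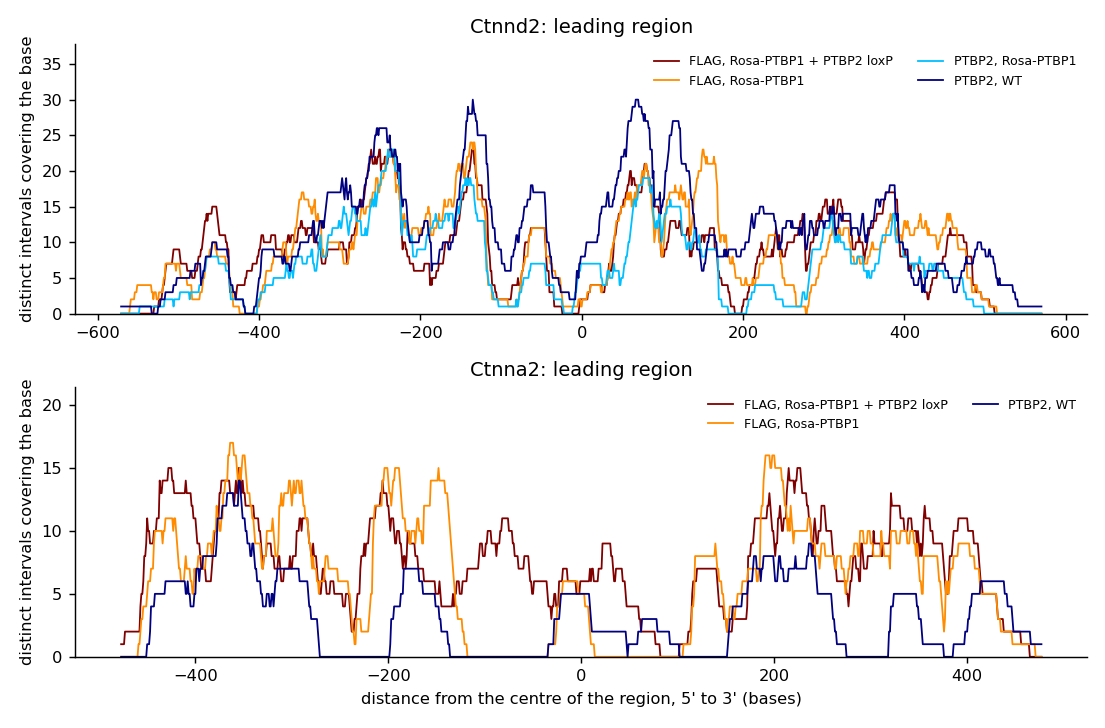
Number of distinct intervals covering each base (y axis) against distance in bases from the centre of the leading region of Ctnnd2 (top) and of Ctnna2 (bottom), 1 line per library, read 5′ to 3′ on the RNA. In Ctnnd2 the 4 libraries show several peaks, with maxima of 23 intervals in FLAG loxP, 24 in FLAG Rosa-PTBP1, 23 in PTBP2 Rosa-PTBP1 and 30 in PTBP2 WT.

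The next 5 Ctnnd2 regions were also present in all 4 PTBP libraries. Region 2, at chr15:30415627-30415977, had 93 intervals in FLAG loxP, 93 in FLAG Rosa-PTBP1, 38 in PTBP2 Rosa-PTBP1, 67 in PTBP2 WT and 1 in each FLAG WT replicate. Region 3, at chr15:30416011-30416632, had 110 in FLAG loxP, 108 in FLAG Rosa-PTBP1, 16 in PTBP2 Rosa-PTBP1, 43 in PTBP2 WT and 0 in each FLAG WT replicate. Region 4, at chr15:30286999-30287330, had 77 in FLAG loxP, 70 in FLAG Rosa-PTBP1, 21 in PTBP2 Rosa-PTBP1, 36 in PTBP2 WT, and 2 and 0 in FLAG WT replicates 1 and 2. In region 4 the base under most intervals was base 248 from the 5′ edge in FLAG loxP, 256 in FLAG Rosa-PTBP1, 244 in PTBP2 Rosa-PTBP1 and 256 in PTBP2 WT, so both antibodies peaked at nearly the same place there. Regions 2 and 3 had no such common place. In region 2 it was base 166 in FLAG loxP, 38 in PTBP2 Rosa-PTBP1 and 175 in PTBP2 WT. FLAG Rosa-PTBP1 had equal peaks between bases 37 and 153. In region 3 it was base 250 in FLAG Rosa-PTBP1 and 298 in PTBP2 Rosa-PTBP1. Equal peaks lay between bases 59 and 301 in FLAG loxP, and between 185 and 267 in PTBP2 WT. Region 5, at chr15:30469631-30469914, had 65 in FLAG loxP, 23 in FLAG Rosa-PTBP1, 15 in PTBP2 Rosa-PTBP1, 44 in PTBP2 WT and 0 in each FLAG WT replicate. Region 6, at chr15:30467546-30467927, had 90 in FLAG loxP, 51 in FLAG Rosa-PTBP1, 11 in PTBP2 Rosa-PTBP1, 11 in PTBP2 WT and 0 in each FLAG WT replicate. In regions 5 and 6 the peak of FLAG loxP lay away from that of FLAG Rosa-PTBP1. It was at base 100 in FLAG loxP, 160 in FLAG Rosa-PTBP1, 162 in PTBP2 Rosa-PTBP1 and 114 in PTBP2 WT in region 5. In region 6 it was at base 56 in FLAG loxP, 234 in FLAG Rosa-PTBP1, 54 in PTBP2 Rosa-PTBP1 and 58 in PTBP2 WT, so that FLAG Rosa-PTBP1 alone of the 4 peaked in another place; with as few as 9 and 7 intervals at the peak, the PTBP2 WT and PTBP2 Rosa-PTBP1 positions are coarse. The 6 regions together took 41.0% of the locus' intervals in FLAG loxP, 31.1% in FLAG Rosa-PTBP1, 78.7% in PTBP2 Rosa-PTBP1 and 69.3% in PTBP2 WT. Along Ctnnd2 the listed PTBP2 intervals were thus more gathered in these 6 regions, which were chosen by mean share over the same libraries. Antibody, run and size of list cannot be told apart in this contrast. In Ctnna2 PTBP2 WT, at 26.1% in its 6 leading regions, lay between FLAG Rosa-PTBP1 at 20.4% and FLAG loxP at 35.7%.

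Of 315 merged regions in Ctnnd2, 220 held intervals of 1 of the 4 PTBP libraries, 61 of 2, 24 of 3 and 10 of all 4. Those of 1 library were 69.8% in Ctnnd2, against 78.7% of all merged regions on the 12 chromosomes filled in the 4 libraries, and those of all 4 were 3.17% in Ctnnd2, against 3.27%, so that single-library regions were common in the lists as a whole. FLAG Rosa-PTBP1 alone accounted for 115 of them, FLAG loxP for 71, PTBP2 Rosa-PTBP1 for 19 and PTBP2 WT for 15. The 10 regions held by all 4 took 46.4% of the locus' intervals in FLAG loxP, 35.7% in FLAG Rosa-PTBP1, 81.8% in PTBP2 Rosa-PTBP1 and 73.4% in PTBP2 WT.

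Set against PTBP2 over the whole of Ctnnd2, FLAG-PTBP1 had the larger share of sites. FLAG Rosa-PTBP1 over PTBP2 Rosa-PTBP1 was 2.46 (1.79 to 3.45), and FLAG loxP over PTBP2 WT was 1.99 (1.49 to 2.69). Counted as intervals, the shares were closer, at 6.59 per 1000 intervals in FLAG loxP and 5.96 in FLAG Rosa-PTBP1, against 5.23 in PTBP2 Rosa-PTBP1 and 4.88 in PTBP2 WT. Apart from its densest 10 kb by mean share over the PTBP libraries, from 30.26 to 30.27 Mb and chosen after values were seen, Ctnnd2 held 2.05-fold as large a share of intervals in FLAG Rosa-PTBP1 as in PTBP2 Rosa-PTBP1, and 1.97-fold (1.77 to 2.20) as large in FLAG loxP as in PTBP2 WT. Inside those 10 kb the ratios were 0.319 and 0.520 (0.442 to 0.611), where the part of counts that level off was not tested. Of 4 windows tested (20 or more sites in both libraries together), 2 were 2-fold or more higher in FLAG Rosa-PTBP1 than in PTBP2 Rosa-PTBP1, where 40.6% of all windows were; none was lower, where 3.39% of all windows were. For FLAG loxP over PTBP2 WT it was 3 of 4, where 20.2% of all windows were. These counts rest on the contrast by which the locus was chosen.

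FLAG-PTBP1 on Ctnnd2 as a whole differed little between cortex with and without PTBP2 loxP alleles, and its direction depended on what was counted. FLAG loxP over FLAG Rosa-PTBP1 was 0.936 (0.760 to 1.15) by sites and 1.11 (1.04 to 1.18) by intervals. Over filled chromosomes these ratios were 1.02 (0.826 to 1.25) and 1.21 (1.13 to 1.29). By sites, 4 of 7 alternatives kept the direction. By sites, none of its 5 windows tested was 2-fold higher or lower in FLAG loxP, where 3.36% of all windows were higher and 12.0% lower. The window from 30.1 to 30.2 Mb was still lower beyond counting error, at 0.533 (0.333 to 0.836). It held 128 intervals in FLAG loxP and 449 in FLAG Rosa-PTBP1, or 7.30% and 21.4% of their intervals in the locus. The counting intervals of the other windows tested included no difference. Of 40 regions tested (20 or more intervals in both libraries together), 8 were 2-fold or more higher in FLAG loxP and 8 were 2-fold or more lower, where 11.7% of all regions were higher and 16.2% lower. The median log2 ratio was 0.35 over the 40 regions and 0.03 over the 5778 regions tested, with 0.5 added to each count.

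All 8 higher regions lay within 4460 bases, at chr15:30466742-30471201, where 14 regions were tested; this stretch was delimited after its values were seen. It held 453 intervals in FLAG loxP, 255 in FLAG Rosa-PTBP1, 36 in PTBP2 Rosa-PTBP1, 108 in PTBP2 WT, and 1 and 0 in FLAG WT replicates 1 and 2. This was 25.8% of the locus' intervals in FLAG loxP and 12.2% in FLAG Rosa-PTBP1. Regions 5 and 6 are in it, with ratios of 3.74 (2.29 to 6.30) and 2.33 (1.64 to 3.36) for FLAG loxP over FLAG Rosa-PTBP1. Of the 8 lower regions, 5 lay in the first window of the locus, and 3 were listed at 0 in FLAG loxP, so they passed the filter through FLAG Rosa-PTBP1 alone. One of these, at chr15:30141275-30141496, had 0 intervals in FLAG loxP and 30 in FLAG Rosa-PTBP1. The leading region was 1.22 (1.04 to 1.44) for FLAG loxP over FLAG Rosa-PTBP1. Both libraries came from 1 sequencing run, and with 1 library a group the spread between animals was not measured.

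PTBP2 on Ctnnd2 was compared between cortex with the transgene and wild-type cortex. The outcome depended on the chromosomes counted, and its sign differed between the runs. As a log2 ratio of site shares, PTBP2 Rosa-PTBP1 over PTBP2 WT was 0.53 within run XB028 and -0.39 within run XA041. No counting interval was computed for either value. Each rests on part of 2 lists that held 47 and 66 sites in the locus. By share of all sites PTBP2 Rosa-PTBP1 over PTBP2 WT was 0.864 (0.582 to 1.28). With shares taken over chromosomes filled in every library plus chromosome 15, it was 0.591 (0.398 to 0.873), lower beyond counting error. Outside the densest 10 kb the share of intervals was 0.886 over all chromosomes and 0.645 (0.540 to 0.769) over the filled ones. Neither of the 2 windows tested was 2-fold higher or lower, where 2.53% of all windows were higher and 13.7% lower. Of 7 regions tested, 1 was 2-fold or more higher and 0 were lower, where 22.2% of all regions were higher and 17.2% lower. The higher one, region 6, had 11 intervals in each library, at 2.09 (0.821 to 5.31), which includes no difference. Over filled chromosomes it was 1.52 (0.598 to 3.87), below 2-fold. The leading region was 1.32 (1.10 to 1.58) over all chromosomes and 0.963 (0.805 to 1.15) over the filled ones, so its direction depended on the chromosomes that PTBP2 Rosa-PTBP1 nearly lacks. Both values describe PTBP2 precipitated from whole cortex, where a change in cell make-up and a change per cell cannot be told apart.

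In Ctnna2 the intervals gathered in the middle of the locus, and both proteins shared the same centre. From 77.4 to 77.5 Mb there were 75 sites in FLAG loxP, 128 in FLAG Rosa-PTBP1, 76 in PTBP2 WT, and 55 and 3 in FLAG WT replicates 1 and 2. From 77.3 to 77.4 Mb there were 59 in FLAG loxP, 94 in FLAG Rosa-PTBP1, 36 in PTBP2 WT, and 42 and 2 in FLAG WT replicates 1 and 2. From 77.5 to 77.6 Mb there were 19 in FLAG loxP, 51 in FLAG Rosa-PTBP1, 21 in PTBP2 WT, and 36 and 8 in FLAG WT replicates 1 and 2. The first of these windows had the most sites in each PTBP library compared.

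**Figure D4:**
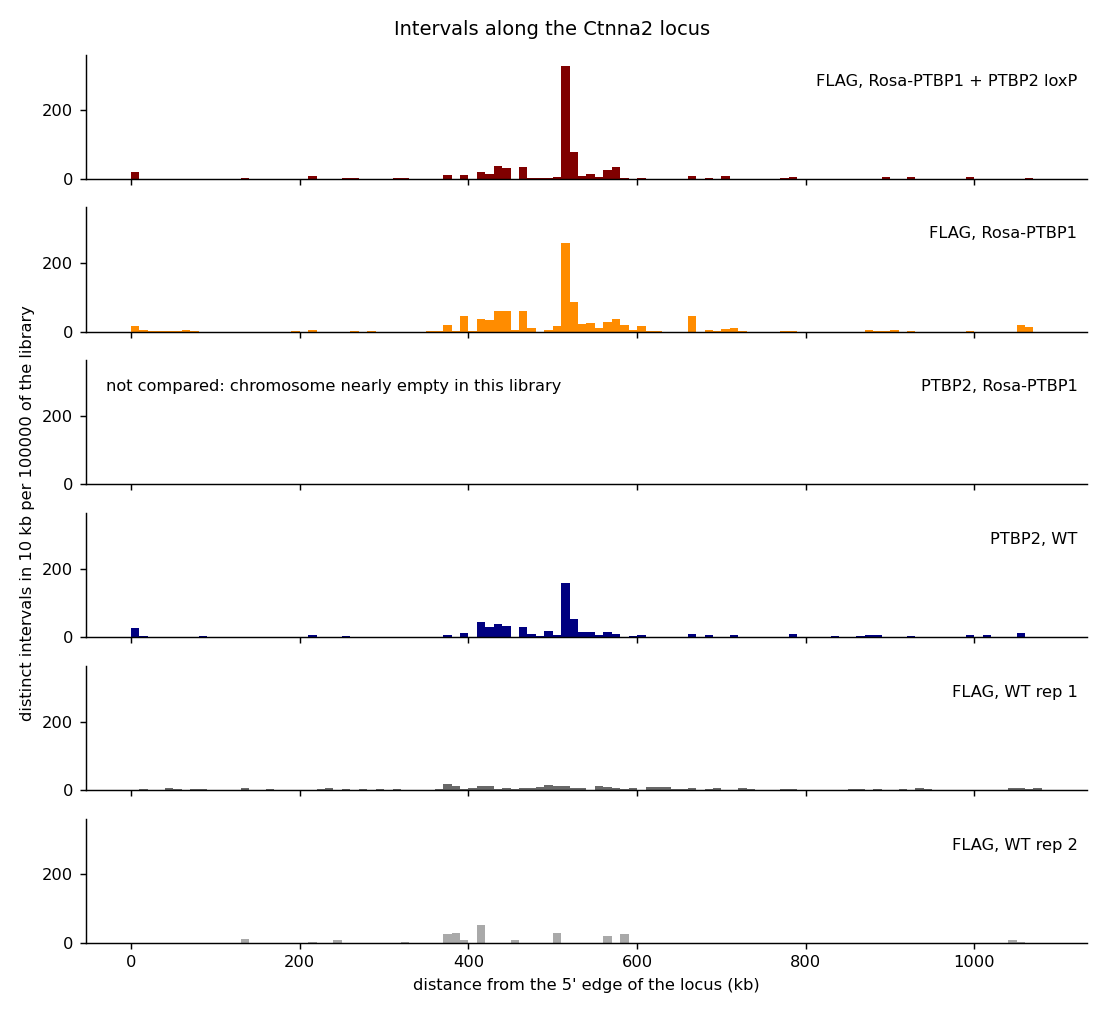
Distinct intervals in each 10 kb per 100000 distinct intervals of the library (y axis, 1 scale for all panels) against distance from the 5′ edge of the Ctnna2 locus in kb (x axis), 1 panel per library; PTBP2 Rosa-PTBP1 nearly lacks this chromosome. The same 10-kb stretch is highest in the 3 PTBP libraries compared, at 331 in FLAG loxP, 258 in FLAG Rosa-PTBP1 and 158 in PTBP2 WT.

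The leading regions of Ctnna2 formed a cluster. Region 1, at chr6:77407144-77408098 on the minus strand, had 212 intervals in FLAG loxP, 192 in FLAG Rosa-PTBP1 and 74 in PTBP2 WT, and 2 and 0 in FLAG WT replicates 1 and 2. Region 2, at chr6:77405850-77406640, had 190 in FLAG loxP, 187 in FLAG Rosa-PTBP1, 59 in PTBP2 WT and 0 in each FLAG WT replicate. Region 3, at chr6:77408124-77408780, had 146 in FLAG loxP, 138 in FLAG Rosa-PTBP1, 43 in PTBP2 WT and 0 in each FLAG WT replicate. FLAG-PTBP1 and PTBP2 stacked at nearly the same bases in region 2: the base under most intervals was base 40 from the 5′ edge in FLAG loxP, 39 in FLAG Rosa-PTBP1 and 40 in PTBP2 WT. In region 1 it was base 116 in FLAG Rosa-PTBP1 and 124 in PTBP2 WT, while FLAG loxP had equal peaks of 15 intervals between bases 50 and 705. In region 3 the peaks lay further apart, at base 298 in FLAG loxP, 363 in FLAG Rosa-PTBP1 and 341 in PTBP2 WT. Region 6, at chr6:77408784-77409281, belonged to the same cluster, with 45 in FLAG loxP, 54 in FLAG Rosa-PTBP1, 23 in PTBP2 WT and 0 in each FLAG WT replicate.

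The other leading Ctnna2 regions lay on either side. Region 4, at chr6:77395239-77395685, had 82 intervals in FLAG loxP, 101 in FLAG Rosa-PTBP1, 33 in PTBP2 WT and 0 in each FLAG WT replicate. Region 5, at chr6:77473498-77473803, had 45 in FLAG loxP, 72 in FLAG Rosa-PTBP1, 30 in PTBP2 WT and 0 in each FLAG WT replicate. The 6 regions together took 35.7% of the locus' intervals in FLAG loxP, 20.4% in FLAG Rosa-PTBP1 and 26.1% in PTBP2 WT. Of 435 merged regions in Ctnna2, 278 held intervals of 1 PTBP library, 104 of 2 and 53 of 3. Those of 1 library were 63.9% in Ctnna2, against 75.4% of all regions of these 3 libraries on the 19 chromosomes filled in them, and those of 3 were 12.2% in Ctnna2, against 8.59%. The 53 took 68.7% of the locus' intervals in FLAG loxP, 48.2% in FLAG Rosa-PTBP1 and 59.1% in PTBP2 WT.

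FLAG-PTBP1 on Ctnna2 was lower in cortex with PTBP2 loxP alleles, and narrower. By share of sites FLAG loxP over FLAG Rosa-PTBP1 was 0.695 (0.580 to 0.831), a difference beyond counting error that was not set against the spread between animals. With shares taken over filled chromosomes it was 0.752 (0.628 to 0.900). The densest 10 kb by the same measure, from 77.40 to 77.41 Mb, went the other way: it held 879 intervals in FLAG loxP, 907 in FLAG Rosa-PTBP1, 246 in PTBP2 WT, and 10 and 0 in FLAG WT replicates 1 and 2. That was 43.6% (41.5 to 45.8) of the locus' intervals in FLAG loxP, 24.9% (23.5 to 26.4) in FLAG Rosa-PTBP1 and 24.5% (21.8 to 27.3) in PTBP2 WT. As a share of the library's intervals, FLAG loxP over FLAG Rosa-PTBP1 was 1.28 (1.17 to 1.41) inside those 10 kb and 0.549 (0.512 to 0.589) in the rest of the locus. Over filled chromosomes these ratios were 1.40 (1.27 to 1.54) and 0.599 (0.558 to 0.642). The part of interval counts that level off in dense stretches was not tested.

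Of 68 Ctnna2 regions tested, 3 were 2-fold or more higher in FLAG loxP and 19 were 2-fold or more lower, where 11.7% of all regions were higher and 16.2% lower; the median log2 ratio was -0.17 over the 68, with 0.5 added to each count. The 12 tested in the densest 10 kb had ratios from 1.05 to 1.46, with none 2-fold lower, and the 56 outside it had a median ratio of 0.767 and held all 19 lower ones. Of the 19, 4 were listed at 0 in FLAG loxP and passed the filter through FLAG Rosa-PTBP1 alone. One of them, at chr6:77251604-77251849, had 0 intervals in FLAG loxP and 43 in FLAG Rosa-PTBP1, and a neighbour at chr6:77255158-77255400 had 9 in FLAG loxP and 53 in FLAG Rosa-PTBP1. By windows, 2 of 5 tested were 2-fold lower and 0 higher in FLAG loxP, where 12.0% of all windows were lower and 3.36% higher. The lower ones were 77.5 to 77.6 Mb, at 0.459 (0.256 to 0.791), and 77.2 to 77.3 Mb, at 0.431 (0.154 to 1.06), whose interval includes no difference.

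**Figure D5:**
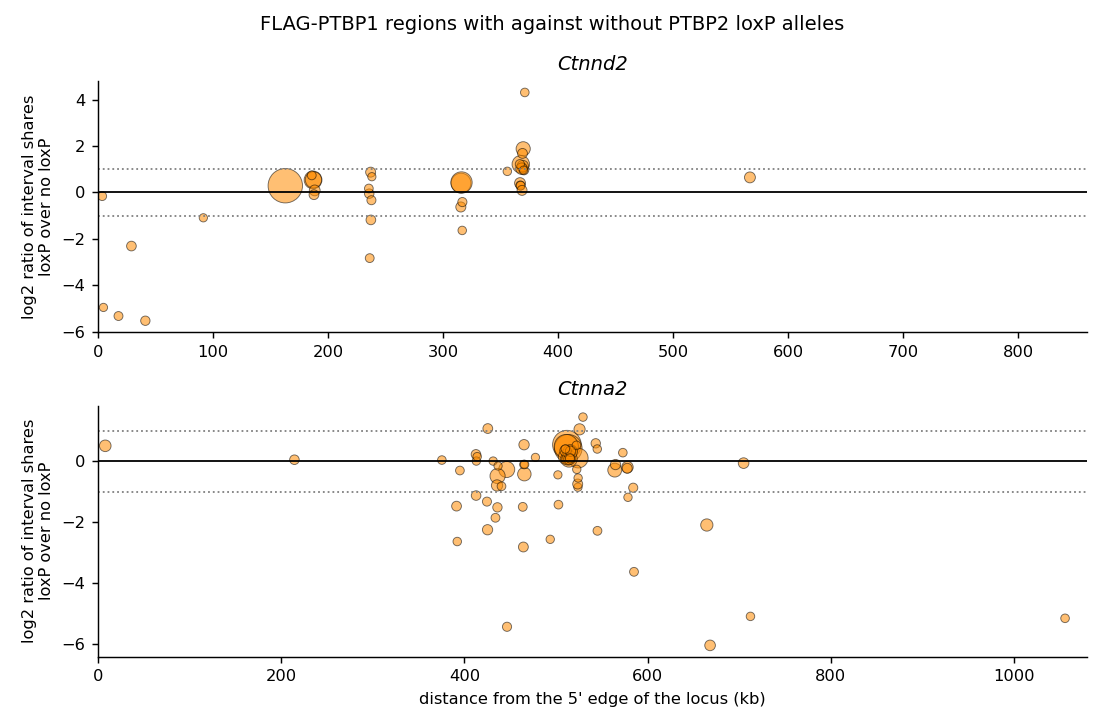
Log2 ratio of the region's share of intervals, FLAG loxP over FLAG Rosa-PTBP1, with 0.5 added to each count (y axis), against distance from the 5′ edge of the locus in kb (x axis), for 40 regions of Ctnnd2 (top) and 68 of Ctnna2 (bottom) with 20 or more intervals in both libraries together. Point area grows with the number of intervals and dotted lines mark 2-fold: the 8 higher Ctnnd2 regions stand in 1 column near 370 kb, and the large Ctnna2 points sit just above 0 among many lower small ones.

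Set against PTBP2 WT in Ctnna2, both FLAG-PTBP1 libraries were higher by intervals. By sites, neither differed beyond counting error over filled chromosomes. FLAG loxP over PTBP2 WT was 0.848 (0.689 to 1.05) by sites and 1.17 (1.09 to 1.26) by intervals. FLAG Rosa-PTBP1 over PTBP2 WT was 1.22 (1.02 to 1.47) by sites and 1.60 (1.49 to 1.72) by intervals, a comparison added after values were seen. Over filled chromosomes the ratios by sites were 1.14 (0.953 to 1.38) for FLAG Rosa-PTBP1 and 0.861 (0.699 to 1.06) for FLAG loxP. For FLAG loxP over PTBP2 WT, none of 3 windows tested was 2-fold different, where 20.2% of all windows were higher and 3.79% lower. The densest 10 kb was 2.09-fold (1.81 to 2.42) higher in FLAG loxP than in PTBP2 WT by share of intervals, and the rest of the locus was 0.874 (0.797 to 0.959). Both parts ran the other way in Ctnnd2, where FLAG loxP over PTBP2 WT was 0.520 inside the densest stretch and 1.97 outside it. Of 27 Ctnna2 regions tested, 9 were 2-fold or more higher and 1 lower in FLAG loxP than in PTBP2 WT, where 26.8% of all regions were higher and 19.2% lower; 1 of the 9 was listed at 0 in PTBP2 WT.

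Window counts against the background libraries lay near the share called over all windows in most cases. Of 7 Ctnnd2 windows tested, 3 were 2-fold or more higher and 1 lower in FLAG Rosa-PTBP1 than in FLAG WT replicate 1, where 38.4% of all windows were higher and 11.4% lower. In Ctnna2 3 of 5 were higher and 0 lower. Against replicate 2 the counts were 4 of 4 in Ctnnd2 and 3 of 4 in Ctnna2, where 86.0% of all windows were higher, and 0 were lower in either locus, where 1.07% of all windows were. PTBP2 WT over FLAG WT replicate 1 had 1 higher and 2 lower of 6 in Ctnnd2 and 3 higher and 0 lower of 6 in Ctnna2, where 26.7% of all windows were higher and 19.6% lower. The first Ctnnd2 window was 1 of the lower ones, at 0.238 (0.0621 to 0.653), and 2.54-fold (1.72 to 3.80) higher in FLAG Rosa-PTBP1 than in FLAG WT replicate 1. Against replicate 2, PTBP2 WT was higher in 1 of 1 Ctnnd2 window and 2 of 3 Ctnna2 windows, where 80.6% of all windows were.

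Sites of the smaller PTBP lists met sites of the larger ones more often in these loci than over all chromosomes filled in both libraries of the pair, beyond counting error in each case given but FLAG loxP in Ctnnd2. Those chromosomes number 19 for pairs of FLAG Rosa-PTBP1 with FLAG loxP, PTBP2 WT or FLAG WT, 12 for PTBP2 Rosa-PTBP1 with FLAG Rosa-PTBP1 and 13 for PTBP2 Rosa-PTBP1 with PTBP2 WT. A site counted as shared with 1 base or more of overlap on its strand. FLAG loxP sites met a FLAG Rosa-PTBP1 site in 53.3% (45.4 to 61.0) of cases in Ctnnd2 and 70.6% (63.7 to 76.9) in Ctnna2, against 47.4% over those chromosomes. PTBP2 WT sites met a FLAG Rosa-PTBP1 site in 66.7% (54.0 to 77.8) in Ctnnd2 and 58.3% (50.8 to 65.6) in Ctnna2, against 38.9% over those chromosomes. PTBP2 Rosa-PTBP1 sites in Ctnnd2 met a PTBP2 WT site in 44.7% (30.2 to 59.9) and a FLAG Rosa-PTBP1 site in 53.2% (38.1 to 67.9), against 17.9% and 20.6% over those chromosomes. Seen from the larger list, FLAG Rosa-PTBP1 sites met a FLAG loxP site in 41.8% (35.2 to 48.6) in Ctnnd2 and 40.7% (35.5 to 46.1) in Ctnna2. Both intervals include the 36.1% over those chromosomes. FLAG Rosa-PTBP1 sites in Ctnnd2 met a PTBP2 Rosa-PTBP1 site in 10.5% (6.74 to 15.3), which includes the 14.5% over those chromosomes. They met a PTBP2 WT site in 19.5% (14.5 to 25.4) in Ctnnd2, which includes the 23.0% over those chromosomes, and in 28.5% (23.8 to 33.6) in Ctnna2. Among stacked sites the excess held beyond counting error only for FLAG loxP in FLAG Rosa-PTBP1 in Ctnna2, at 80.3% (72.2 to 87.0) against 58.9%. FLAG Rosa-PTBP1 sites met a site of FLAG WT replicate 1 in 6.8% in Ctnnd2 and 6.7% in Ctnna2, against 6.4% over those chromosomes. The part of site density in these shares was not tested.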

How the data were processed

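Per the submitters' processing notes, reads were aligned with Bowtie to mm9, with the Bowtie version, the cluster caller and its false discovery level not given in the sources used here. As deposited, a list gives the start and end position of read intervals in clusters that passed that level, with strand and read name and no count, per the file headers and the values. Here lines were collapsed to distinct intervals and merged into sites. Lists keep about 1 interval per leftmost coordinate (84.2% to 97.1% of intervals have a distinct one), so interval counts level off where reads pile up. Reads below the level are not listed, so no fold is printed against a place listed at 0; such regions still enter counts of calls, and medians with 0.5 added. Regions were built by merging intervals of the 4 PTBP libraries; the 6 named per locus had the highest mean share over libraries, and other named regions were chosen after their values were seen. Shares were compared as ratios with exact 95% conditional binomial intervals, and single shares with Clopper-Pearson intervals, both covering counting error only. A call is a 2-fold difference with 20 or more sites (windows) or intervals (regions) in both libraries together. Members and lists were chosen with earlier results of these data known. The annotation at hand was of another build than mm9: no coordinates were converted, no sequence is shown, and the listed cadherin and catenin genes were not analysed here. Scripts used Python 3.11.15, pandas 2.3.3, NumPy 2.4.6 and SciPy 1.17.1, and the interval calculations were tested on simulated data.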

Additional observations from a re-analysis of the deposited data

How the results depend on the processing

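Values here are log2 ratios of shares. FLAG loxP over FLAG Rosa-PTBP1 in Ctnna2 kept its direction under all 7 alternatives, from -0.56 to -0.41. Counted as distinct intervals in place of sites, Ctnnd2 FLAG loxP over PTBP2 WT was 0.43 (reported 0.99), Ctnnd2 FLAG Rosa-PTBP1 over PTBP2 Rosa-PTBP1 was 0.19 (reported 1.30), and Ctnna2 FLAG loxP over PTBP2 WT turned to 0.23 (reported -0.24). With stacked sites only, Ctnnd2 values were 0.30 for FLAG Rosa-PTBP1 over PTBP2 Rosa-PTBP1, 0.43 for PTBP2 Rosa-PTBP1 over PTBP2 WT (reported -0.21), 3.32 for FLAG Rosa-PTBP1 over FLAG WT (reported 1.50) and 2.59 for PTBP2 WT over FLAG WT (reported 0.41). Ctnnd2 PTBP2 Rosa-PTBP1 over PTBP2 WT was 0.53 within run XB028 and -0.39 within run XA041. Its sign thus differed between the runs, with no counting interval computed for either value. FLAG-PTBP1 and PTBP2 libraries share no run, so no such value exists for them.

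Leaving out each FLAG WT replicate in turn gave 0.94 to 2.44 for FLAG Rosa-PTBP1 and -0.15 to 1.35 for PTBP2 WT over FLAG WT in Ctnnd2, and 1.25 to 2.09 and 0.96 to 1.80 in Ctnna2. Overlap rose to 64.1% for Ctnnd2 FLAG loxP sites in FLAG Rosa-PTBP1 within 50 bases and, among stacked sites, to 85.7% for Ctnnd2 PTBP2 Rosa-PTBP1 in PTBP2 WT, 80.3% for Ctnna2 FLAG loxP in FLAG Rosa-PTBP1 and 70.6% for Ctnna2 PTBP2 WT in FLAG Rosa-PTBP1; over all chromosomes filled in each pair these stacked shares were 64.3%, 58.9% and 62.6%. With filled chromosomes as denominator, an alternative added after the data were seen, the densest Ctnnd2 10 kb turned to -0.054 for PTBP2 Rosa-PTBP1 over PTBP2 WT (reported 0.40) and was -1.26 for FLAG Rosa-PTBP1 over PTBP2 Rosa-PTBP1. The rest of Ctnnd2 was 0.25 for FLAG loxP over FLAG Rosa-PTBP1, -0.63 for PTBP2 Rosa-PTBP1 over PTBP2 WT and 1.42 for FLAG Rosa-PTBP1 over PTBP2 Rosa-PTBP1, and the rest of Ctnna2 was -0.74 for FLAG loxP over FLAG Rosa-PTBP1. Ctnna2 FLAG Rosa-PTBP1 over PTBP2 WT was 0.68 as distinct intervals (reported 0.29). Ctnnd2 FLAG loxP over FLAG Rosa-PTBP1 turned to 0.15 by intervals (reported -0.096), and Ctnnd2 PTBP2 Rosa-PTBP1 over PTBP2 WT was -0.76 with filled chromosomes. In all, 83 values moved by less than their error, the last pair among them, 18 moved by more and 1 reversed. Moving by less than the error does not mean that the reading held. The first value of the last pair changed sign. The second, a ratio of 0.591 (0.398 to 0.873), lay below 1 beyond counting error. The causes were not tested. No paired analysis was possible because the groups compared share fewer than 2 replicate numbers.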
